A study of Homo sapiens with 8 samples.

Results

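Control hairpin cells of the colorectal cancer lines SW480 and DLD-1 were compared gene by gene to show which programmes set the lines apart before NAT10 is touched. The series holds 8 RNA-seq libraries, and the 4 with the control hairpin were used: 2 of SW480 and 2 of DLD-1, which the labels give as biological replicates. All 4 were labelled wild type and had been infected with shControl virus, so the lentiviral hairpin is shared by every library compared. The shNAT10 libraries of the same lines took no part in the comparison. Both are established lines grown from human colorectal adenocarcinomas and were kept in the same medium, DMEM with serum. Each line stands for itself only, and whatever else differed between the cultures, such as the dose of virus or the time in culture, cannot be told apart from the line.

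Colorectal cancer lines differ in how much of the intestinal epithelium they retain. In an epithelial state, cells hold together through cadherin, claudin and desmosomal junctions, which the GRHL, OVOL and ESRP regulators maintain, and gut identity rests on factors such as CDX2, HNF4A and FOXA1. In the epithelial to mesenchymal transition (EMT), ZEB and SNAI repressors bind E-box sequences in the promoters of junction genes, while vimentin, matrix and motility genes are switched on. Tumor cells can also carry a standing interferon programme, in which interferons act through JAK kinases on a complex that includes STAT2 and IRF9 and binds a purine-rich element in the promoters of antiviral genes.

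A few promoters are shown first, because interferon and junction genes are among the main differences between the lines. They are RefSeq sequences of build GRCh38.p14, from 250 bases before to 50 bases after the transcript start. In the first set, capitals mark GAAANNGAAA on either strand, the core of the interferon element, in IFI6 (chr1:27672143-27672442, minus strand), ISG15 (chr1:1013247-1013546, plus strand) and the lambda interferon gene IFNL1 (chr19:39296157-39296456, plus strand).
IFI6: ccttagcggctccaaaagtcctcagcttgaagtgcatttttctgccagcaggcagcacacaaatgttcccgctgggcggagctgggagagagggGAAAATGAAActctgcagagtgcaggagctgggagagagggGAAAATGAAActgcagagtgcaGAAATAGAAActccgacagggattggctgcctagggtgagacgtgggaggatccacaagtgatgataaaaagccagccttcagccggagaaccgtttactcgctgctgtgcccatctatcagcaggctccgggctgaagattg
ISG15: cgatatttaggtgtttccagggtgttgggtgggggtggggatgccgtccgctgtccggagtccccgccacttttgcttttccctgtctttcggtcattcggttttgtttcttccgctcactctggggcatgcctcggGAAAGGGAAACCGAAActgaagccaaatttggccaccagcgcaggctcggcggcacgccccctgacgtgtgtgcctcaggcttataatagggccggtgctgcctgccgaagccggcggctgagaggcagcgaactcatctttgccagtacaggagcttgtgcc
IFNL1: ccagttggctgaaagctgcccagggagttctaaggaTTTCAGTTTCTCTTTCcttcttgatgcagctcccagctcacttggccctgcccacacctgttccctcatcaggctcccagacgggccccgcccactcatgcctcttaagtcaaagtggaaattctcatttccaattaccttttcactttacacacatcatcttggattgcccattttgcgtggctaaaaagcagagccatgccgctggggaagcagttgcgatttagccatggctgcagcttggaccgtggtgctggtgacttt

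In the second set, capitals mark the E-box CACCTG on either strand in RAB25 (chr1:156060910-156061209, plus strand), a sorting GTPase of epithelial cells, and in CRB3 (chr19:6464021-6464320, plus strand), which sets apical polarity.
RAB25: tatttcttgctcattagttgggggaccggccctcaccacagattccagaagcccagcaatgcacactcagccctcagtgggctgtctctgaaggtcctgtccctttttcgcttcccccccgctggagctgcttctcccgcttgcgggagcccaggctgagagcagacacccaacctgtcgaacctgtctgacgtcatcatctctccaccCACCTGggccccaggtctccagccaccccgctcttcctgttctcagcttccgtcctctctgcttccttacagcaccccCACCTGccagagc
CRB3: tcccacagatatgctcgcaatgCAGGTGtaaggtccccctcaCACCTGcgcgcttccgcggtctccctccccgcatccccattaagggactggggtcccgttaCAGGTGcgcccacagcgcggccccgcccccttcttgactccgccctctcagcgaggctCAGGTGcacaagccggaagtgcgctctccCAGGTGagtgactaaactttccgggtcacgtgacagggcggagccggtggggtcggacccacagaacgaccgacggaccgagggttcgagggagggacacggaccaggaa

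The libraries held 16807199 to 17137422 estimated reads in genes, and 14871 to 15646 of the 17309 genes of the table had at least 1 count. Within a line the libraries were close to each other, with a Pearson correlation across genes of 0.9954 in SW480 and 0.9951 in DLD-1 on log2 CPM (counts scaled to a fixed total per library), against 0.797 between the lines (genes are not independent replicates). The median gene differed by 0.54 on the log2 scale between the lines and by 0.088 and 0.097 between replicates. With 3 counts worth 0.175 to 0.178 CPM, a gene at 0 in a library may still have been present at up to that level, and intervals and limits given here cover counting error only.

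Of 13413 genes that passed the filter on low counts, 2332 (17.4%) were called higher in SW480 and 1542 (11.5%) higher in DLD-1, at a Benjamini-Hochberg adjusted p under 0.05 and a difference of at least 2-fold in edgeR's quasi-likelihood test. By adjusted p alone, 5276 (39.3%) were higher in SW480 and 4987 (37.2%) higher in DLD-1, so that most of the measured transcriptome differed and the 2-fold limit does most of the selecting. The median log2 fold change of all genes tested was 0.0093 (positive values are higher in SW480 throughout). NAT10, the RNA acetyltransferase that the study is about, had 122 and 123 CPM in SW480 against 121 and 121 CPM in DLD-1 (log2 fold change 0.02, edgeR adjusted p = 0.77). KIF23, a mitotic kinesin that the study also follows, had 165 and 155 CPM in SW480 against 137 and 142 CPM in DLD-1 (log2 fold change 0.20, edgeR adjusted p = 0.0088), under the 2-fold limit.

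**Figure D1:**
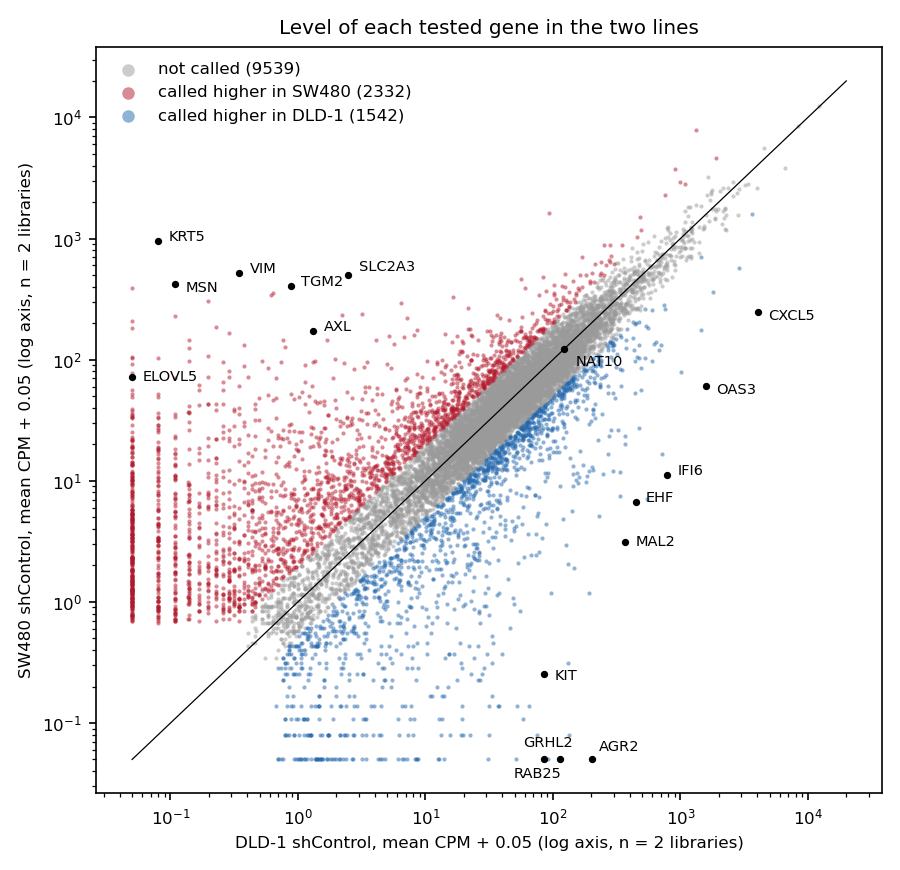
Mean level of each of the 13413 tested genes in DLD-1 (horizontal) and SW480 (vertical), in CPM plus 0.05 on log axes, from 2 libraries a line; red and blue points are the 2332 and 1542 genes called higher in SW480 and DLD-1, and the line marks equal levels. NAT10 lies on the line, while KRT5, VIM and MSN lie far above it and RAB25, GRHL2 and AGR2 lie at 0 in SW480.

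Both lines carried markers of colorectal epithelium, more so DLD-1. The 13 markers found in the table summed to 3460 and 3260 CPM in SW480 and to 8070 and 7770 CPM in DLD-1. Of 12 tested, 9 were called higher in DLD-1 and 2 in SW480. KRT8, a keratin of simple epithelia, had 3672 and 3578 CPM in DLD-1 against 1648 and 1566 CPM in SW480 (log2 fold change -1.17). KRT20, the keratin of differentiated intestinal cells, had 19.2 and 19.1 CPM in DLD-1 against 0.117 and 0.0587 CPM in SW480, a summed ratio of 218-fold, with a 95% exact interval of 74.2 to 1060. The exceptions were VIL1, the microvillus protein villin, with 15.8 and 13.2 CPM in SW480 against 6.65 and 4.21 CPM in DLD-1 (under 2-fold on log2(FPKM + 1), at 0.84), and LGALS4, with 2.29 and 1.88 CPM in SW480 against 1.35 and 0.653 CPM in DLD-1, whose call was lost without SW480 replicate 1 or without DLD-1 replicate 2 (edgeR adjusted p = 0.11 in each). GPA33, a further gut marker, was too low to be tested in either line, and CDX1 was not analysed here. Markers of other cells were low. Those of leukocytes summed to 18.9 to 29.0 CPM, nearly all of it CD68, which epithelial lines express too. Those of fibroblasts summed to 4.65 to 7.58 CPM and those of endothelium to 0.648 to 1.82 CPM, with COL3A1, DCN, PDGFRA and KDR at 0 counts in all 4 libraries. In bulk RNA, fewer cells of a kind and less RNA per cell cannot be told apart.

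The epithelial junction programme was higher in DLD-1. Of 56 tested adhesion and junction genes, 35 were called higher in DLD-1 (62.5%, against 11.5% of all genes tested) and 4 in SW480 (7.1%, against 17.4%). The median log2 fold change was -1.59. Regulators of the programme were part of this. GRHL2, a factor that maintains epithelial cadherin and claudin genes, had 84.4 and 84.5 CPM in DLD-1 against 0 and 0 CPM in SW480, at least 479-fold higher. OVOL1, which restrains the mesenchymal programme, had 6.42 and 7.18 CPM in DLD-1 against 0.0587 and 0.117 CPM in SW480 (log2 fold change -6.16, SE 0.35, edgeR adjusted p = 1.2e-07). The splicing factor ESRP2, which sets epithelial isoforms, had 156 and 142 CPM in DLD-1 against 34.4 and 33 CPM in SW480 (-3.16 for its companion regulator OVOL2 and -2.15 for ESRP2 on the log2 scale). The values of the lines did not overlap for any of these.

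Junction proteins differed by graded amounts. CDH1, the E-cadherin of adherens junctions, had 436 and 441 CPM in DLD-1 against 94.2 and 101 CPM in SW480 (log2 fold change -2.17, SE 0.058, edgeR adjusted p = 5e-10). EPCAM, an adhesion molecule of epithelia, had 657 and 627 CPM in DLD-1 against 140.3 and 141 CPM in SW480 (log2 fold change -2.19, SE 0.058). CLDN7, a claudin that partners EPCAM, had 146 and 139.7 CPM in DLD-1 against 12.9 and 13.7 CPM in SW480 (log2 fold change -3.43, SE 0.074). These genes remained well expressed in SW480, at a lower level. Others were far lower there. RAB25 had 119.9 and 106 CPM in DLD-1 against 0 and 0 CPM in SW480, at least 640.0-fold higher. MAL2, a protein of apical transport, had 369 and 367 CPM in DLD-1 against 3.23 and 2.88 CPM in SW480 (log2 fold change -6.91, SE 0.084, edgeR adjusted p = 8.9e-12). PRSS8, the membrane serine protease prostasin, had 88.8 and 75.4 CPM in DLD-1 against 3.46 and 3.23 CPM in SW480 (log2 fold change -4.61, SE 0.12). The protease matriptase and its inhibitors were on the same side, with log2 fold changes of -2.15 for ST14, -2.03 for SPINT1 and -1.49 for SPINT2.

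Not every junction gene differed. The scaffold TJP1 had 223 and 228 CPM in SW480 against 195 and 203 CPM in DLD-1, occludin (OCLN) had 40.6 and 38.8 CPM in SW480 against 44.1 and 43.9 CPM in DLD-1, and CLDN4 had 117 and 111 CPM in SW480 against 134 and 132 CPM in DLD-1, all under the 2-fold limit. DSP, the desmosomal plakin, was also under it at -0.29 on the log2 scale. The 4 genes called in the other direction were all claudins. CLDN2, a pore-forming claudin of leaky epithelia, had 28.5 and 28.9 CPM in SW480 against 7.95 and 8.07 CPM in DLD-1 (log2 fold change 1.84, SE 0.096, edgeR adjusted p = 5.9e-08). CLDN1 had 24.4 and 28.1 CPM in SW480 against 10.1 and 10.0 CPM in DLD-1, CLDN12 98.9 and 99.3 CPM in SW480 against 46.3 and 50.4 CPM in DLD-1 (under 2-fold without DLD-1 replicate 1, at 0.98 on the log2 scale), and CLDN6, an embryonic claudin, 3.11 and 3.81 CPM in SW480 against 0 and 0.119 CPM in DLD-1. Among keratins the direction depended on the member, with 9 of 15 tested called higher in SW480 and 3 in DLD-1. KRT5, a keratin of basal layers, had 944 and 948 CPM in SW480 against 0.0589 and 0 CPM in DLD-1, from 1 count in the DLD-1 libraries together, a ratio of 32000-fold, with a 95% exact interval of 5740 to 1260000. KRT23 had 219 and 199.7 CPM in SW480 against 0 and 0 CPM in DLD-1, at least 1180-fold higher, and KRT81, a hair keratin, had 41.3 and 37.5 CPM in SW480 against 0.707 and 0.119 CPM in DLD-1. The simple keratins KRT8, KRT18 and KRT19 were the reverse, at -1.17, -0.92 and -1.50 on the log2 scale, KRT18 under the 2-fold limit.

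The mesenchymal programme was higher in SW480. Of 53 tested genes of the mesenchymal and EMT list, 36 were called higher in SW480 (67.9%, against 17.4% of all genes tested) and 2 in DLD-1 (3.8%, against 11.5%). The list had a median log2 fold change of 2.69. The median was 1.37 with at least 10 counts in every library and 1.42 on log2(FPKM + 1). VIM, the intermediate filament vimentin, had 528 and 502 CPM in SW480 against 0.294 and 0.297 CPM in DLD-1 (log2 fold change 10.73, edgeR adjusted p = 8.3e-12). Few counts in DLD-1 leave the size of this fold uncertain. ZEB1, a repressor of junction genes, had 30.7 and 32.9 CPM in SW480 against 0.235 and 0.653 CPM in DLD-1 (log2 fold change 6.14). SNAI2 and PRRX1, further EMT factors, reached 3.41 and 2.82 CPM and 20.4 and 18.5 CPM in SW480 against 0 and 0.0593 CPM and 0.824 and 0.534 CPM in DLD-1. SNAI1 was close in the lines at 5.28 and 5.11 CPM in SW480 against 3.59 and 3.32 CPM in DLD-1, and ZEB2 was too low to be tested.

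Cytoskeletal and matrix genes made up much of the list. MSN, the membrane linker moesin, had 413 and 432 CPM in SW480 against 0.118 and 0 CPM in DLD-1, a summed ratio of 7150-fold, with a 95% exact interval of 1980 to 59000. Its relatives ezrin (EZR, 348 and 352 CPM in SW480 against 424 and 449.5 CPM in DLD-1) and radixin (RDX, 106 and 113 CPM in SW480 against 82.1 and 86.5 CPM in DLD-1), looked at after the values of MSN were seen, stayed within 2-fold. SPARC, a matrix-binding glycoprotein, had 96.3 and 99.2 CPM in SW480 against 1.35 and 1.25 CPM in DLD-1 (log2 fold change 6.22, SE 0.11, edgeR adjusted p = 3.8e-11). FN1, fibronectin, had 57.8 and 58 CPM in SW480 against 4.06 and 4.21 CPM in DLD-1, LGALS1, galectin-1, had 316 and 275 CPM in SW480 against 6.59 and 6.17 CPM in DLD-1, and the contractile gene TAGLN had 43.2 and 42.1 CPM in SW480 against 5.30 and 5.28 CPM in DLD-1. The libraries of SW480 lay above those of DLD-1 in each. AXL, a receptor kinase of mesenchymal tumor cells, had 175 and 173 CPM in SW480 against 1.29 and 1.25 CPM in DLD-1 (log2 fold change 7.09, SE 0.1, edgeR adjusted p = 1.6e-11). The 2 genes called in DLD-1 were NT5E (CD73), with 189 and 179 CPM in DLD-1 against 59.2 and 58.4 CPM in SW480, and TCF4, with 9.30 and 10.9 CPM in DLD-1 against 0.881 and 0.763 CPM in SW480. Several list members did not reach 2-fold, among them CNN3, CAV1, TPM1 and ACTA2, with log2 fold changes of -0.09, -0.57, -0.54 and -0.14.

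**Figure D2:**
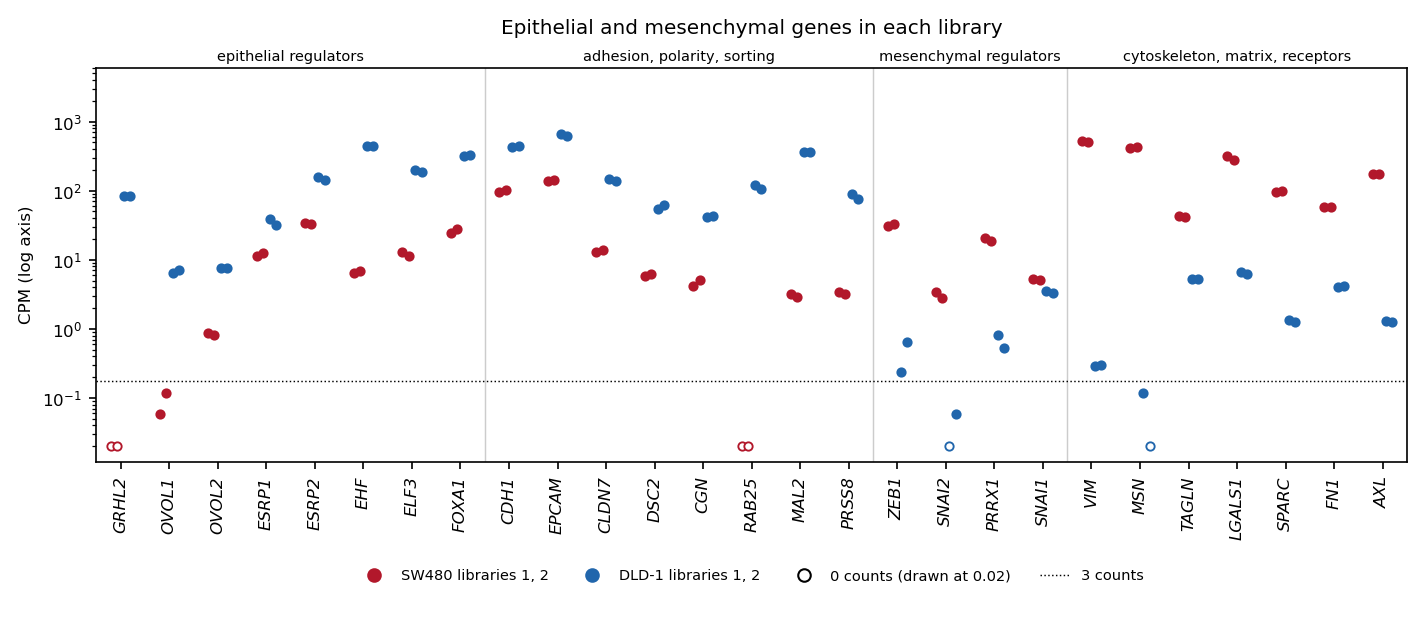
CPM of epithelial and mesenchymal genes in each library on a log axis (red, SW480; blue, DLD-1; open circles, 0 counts, drawn at 0.02; dotted line, the level of 3 counts). The libraries of a line lie together for each gene, DLD-1 lies above SW480 for every epithelial gene drawn, and SW480 lies above DLD-1 for every mesenchymal gene drawn, SNAI1 by the least.

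The E-box shown above in RAB25 and CRB3 was common in promoters of junction genes. Of the 34 tested junction genes with a promoter in the RefSeq table, 18 (52.9%) held CACCTG on either strand, against 2086 of 10889 promoters of tested genes (19.2%) and 5 of 35 promoters (14.3%) of the mesenchymal list. Among junction genes called higher in DLD-1 it was 10 of 18 (55.6%), and it was also present in genes that were not called or were called the other way, such as TJP1, OCLN and CLDN6. CRB3 held 5 such sites and had 47.2 and 49.5 CPM in DLD-1 against 17.4 and 14.5 CPM in SW480 (log2 fold change -1.60, SE 0.09). Of the 25 genes confined to DLD-1 by the rule given further on that have a promoter in the table, 12 (48.0%) held the E-box. They included the lambda interferon genes IFNL1, IFNL2 and IFNL3 and other genes outside the junction list, such as CHRNA1 and PRSS2. These shares are counts of letters in a window and were not tested.

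Gut transcription factors were mostly on the DLD-1 side as well. Of 27 tested, 16 were called higher in DLD-1 (59.3%, against 11.5% of all genes tested) and 3 in SW480 (11.1%, against 17.4%), with a median log2 fold change of -1.15. EHF and ELF3, ETS factors of epithelia, had 450.5 and 438 CPM in DLD-1 against 6.40 and 6.87 CPM in SW480 and 199 and 185 CPM in DLD-1 against 12.9 and 11.3 CPM in SW480 (log2 fold change -6.06, SE 0.076, edgeR adjusted p = 8.9e-12 for EHF). FOXA1, a pioneer factor of endoderm, had 314 and 328 CPM in DLD-1 against 24.4 and 28.3 CPM in SW480 (log2 fold change -3.61, SE 0.076). CDX2, the intestinal homeobox factor, had 155 and 159 CPM in DLD-1 against 43.6 and 37.9 CPM in SW480 (log2 fold change -1.95, SE 0.074). GATA6 and SOX4 were likewise higher, at -1.97 and -3.13 on the log2 scale. HNF4A, the hepatocyte nuclear factor of the gut, was under the 2-fold limit at -0.56, with 38.3 and 37.6 CPM in DLD-1 against 26.2 and 25.4 CPM in SW480. The 3 that were higher in SW480 were at a low level, among them GATA4 with 1.82 and 1.47 CPM in SW480 against 0 and 0.0593 CPM in DLD-1 (under 2-fold on log2(FPKM + 1), at 0.70) and GFI1 with 8.04 and 7.51 CPM in SW480 against 0.648 and 1.07 CPM in DLD-1.

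Differentiated cell products split between the lines. Of 38 tested enterocyte and secretory genes, 16 were called higher in DLD-1 and 13 in SW480 (34.2% in SW480 and 42.1% in DLD-1, against 17.4% and 11.5% of all genes tested). The median log2 fold change was -0.45, and -0.19 on log2(FPKM + 1). Goblet and mucous products were among the genes called in DLD-1. AGR2, which folds mucins in the endoplasmic reticulum, had 212 and 195 CPM in DLD-1 against 0 and 0 CPM in SW480, at least 1160-fold higher. TFF3, a goblet cell trefoil peptide, had 8.71 and 8.31 CPM in DLD-1 against 0 and 0 CPM in SW480, at least 48.3-fold higher. MUC5AC, a gastric mucin, had 48.6 and 62 CPM in DLD-1 against 0.705 and 0.880 CPM in SW480 (log2 fold change -6.11, SE 0.21, edgeR adjusted p = 2.5e-09), and MUC13, a membrane mucin, had 279 and 267 CPM in DLD-1 against 25.9 and 21 CPM in SW480. The membrane mucin MUC12 went the other way, with 1.17 and 0.998 CPM in SW480 against 0.0589 and 0.119 CPM in DLD-1, a low level whose call was lost on log2(FPKM + 1) (0.08) and log2(FPKM + 0.1) (0.65). Brush border genes were called in both directions. MYO1A, the brush border myosin, had 0.71 and 0.77 CPM in DLD-1 against 0 and 0.117 CPM in SW480 (log2 fold change -3.50). The enterocyte receptor GUCY2C had 0.883 and 0.890 CPM in DLD-1 against 0 and 0.0587 CPM in SW480. Both were called in DLD-1, at a low level. Other brush border genes were called in SW480. USH1C, the scaffold harmonin, had 42.2 and 37.9 CPM in SW480 against 0.294 and 0.297 CPM in DLD-1 (log2 fold change 7.05), CDHR5 had 6.05 and 6.69 CPM in SW480 against 0.118 and 0.297 CPM in DLD-1, and SLC9A3, the sodium-proton exchanger of the apical membrane, had 111 and 109 CPM in SW480 against 26.2 and 24.7 CPM in DLD-1. MUC2, FABP1 and SI, the main products of goblet cells and enterocytes, were too low to be tested in either line. Genes of mucin-type glycosylation and blood groups had no common direction. Of 31, 9 were called in DLD-1 (29.0%, against 11.5% of all genes tested) and 4 in SW480 (12.9%, against 17.4%). By adjusted p alone 13 were higher in each line, and the median log2 fold change was -0.05. GALNT3, which starts O-glycans, had 73.7 and 75.2 CPM in DLD-1 against 0.0587 and 0 CPM in SW480, and FUT2, the secretor fucosyltransferase, had 25.6 and 24.7 CPM in DLD-1 against 2.94 and 2.52 CPM in SW480 (log2 fold change -3.20, SE 0.13).

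The interferon-stimulated genes had the median farthest from 0 of the lists described. All 49 interferon-stimulated genes of the list were tested, 42 were called higher in DLD-1 and 2 in SW480, and the median log2 fold change was -3.97. The background for a call in that direction is 11.5% of genes. OAS1, a sensor of double-stranded RNA that makes 2-5A, had 563 and 532 CPM in DLD-1 against 6.58 and 7.57 CPM in SW480 (log2 fold change -6.27, SE 0.084, edgeR adjusted p = 1.1e-11). OAS3, of the same family, had 1515 and 1648 CPM in DLD-1 against 59.5 and 62.2 CPM in SW480 (log2 fold change -4.70, SE 0.077). IFI6 had 806 and 761 CPM in DLD-1 against 11.4 and 10.7 CPM in SW480 (log2 fold change -6.15, SE 0.079, edgeR adjusted p = 8.9e-12), and IFIT1, which binds viral RNA ends, had 723 and 709 CPM in DLD-1 against 16.6 and 16.7 CPM in SW480 (log2 fold change -5.42, SE 0.069). ISG15, the ubiquitin-like modifier, had 1051 and 984 CPM in DLD-1 against 85.3 and 73 CPM in SW480 (log2 fold change -3.68, SE 0.084). CXCL10, a chemokine that draws T cells, had 6.77 and 6.17 CPM in DLD-1 against 0 and 0 CPM in SW480, at least 36.7-fold higher. SW480 was not without the programme, since IFITM3, a membrane restriction factor, still had 375 and 355 CPM there, against 1904 and 1713 CPM in DLD-1.

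The components that carry the signal were examined by role. The ligand genes, which were looked at after their values were seen, were detected in DLD-1. IFNB1, the type I interferon beta, had 8.30 and 8.61 CPM in DLD-1 against 0 and 0 CPM in SW480, at least 48-fold higher. IFNL1 had 39.1 and 36.7 CPM in DLD-1 against 0 and 0.176 CPM in SW480, a summed ratio of 431-fold, with a 95% exact interval of 147 to 2090. IFNL2 had 29.7 and 31.9 CPM in DLD-1 against 0 and 0 CPM in SW480 and IFNL3 14.5 and 13.3 CPM in DLD-1 against 0 and 0 CPM in SW480, and as these neighbours are nearly identical in sequence the division of reads between them is uncertain. The lambda receptor chains leaned in opposite directions. IFNLR1 and IL10RB, the chains of the lambda receptor, had 11.9 and 10.9 CPM in SW480 against 19.4 and 19.2 CPM in DLD-1 and 25.5 and 25.6 CPM in SW480 against 14.7 and 15.2 CPM in DLD-1. IFNAR1 had 119 and 119.7 CPM in SW480 against 84 and 94 CPM in DLD-1, and the kinases JAK1 and TYK2 had log2 fold changes of -0.07 and -0.11 (edgeR adjusted p = 0.26 and 0.13). All of these were under the 2-fold limit. Transcription factors of the pathway were higher in DLD-1, with STAT2 at 193 and 193 CPM in DLD-1 against 28.1 and 30.1 CPM in SW480 and IRF9 at 139 and 134 CPM in DLD-1 against 14.4 and 16.1 CPM in SW480. IRF7, the factor that amplifies interferon genes, had 273 and 271 CPM in DLD-1 against 17.3 and 16 CPM in SW480 (log2 fold change -4.03, SE 0.067, edgeR adjusted p = 3.5e-11). Sensors of double-stranded RNA were higher too. RIGI had 379 and 349.8 CPM in DLD-1 against 21.1 and 19.1 CPM in SW480, IFIH1 (MDA5) 205 and 211 CPM in DLD-1 against 11.4 and 13 CPM in SW480, and TLR3 73.2 and 71.2 CPM in DLD-1 against 7.57 and 7.51 CPM in SW480 (log2 fold change -3.26, SE 0.079). MAVS, the adaptor of RIGI and IFIH1, was within 2-fold at -0.20 on the log2 scale. CGAS, the sensor of DNA, was instead higher in SW480 at 5.99 and 6.51 CPM in SW480 against 2.71 and 2.43 CPM in DLD-1, though under 2-fold on log2(FPKM + 1), at 0.75.

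The exceptions within the list were few. BST2 (tetherin) had 59.5 and 56.5 CPM in SW480 against 11.6 and 8.72 CPM in DLD-1 (log2 fold change 2.51, SE 0.11, edgeR adjusted p = 1.4e-08), and IFI16, a DNA sensor, had 4.46 and 5.22 CPM in SW480 against 0.530 and 0.356 CPM in DLD-1, both higher in SW480. Of the 5 that were not called, IRF1, GBP1, GBP3 and ISG20 had log2 fold changes of -0.43, -0.57, -0.99 and -0.86, and GBP3 passed 2-fold without SW480 replicate 1 (-1.04) or without DLD-1 replicate 2 (-1.03). The neighbours MX1 and MX2, both antiviral GTPases, had 25.1 and 23.4 CPM in DLD-1 against 7.63 and 7.98 CPM in SW480 and 348 and 329 CPM in DLD-1 against 7.69 and 7.28 CPM in SW480. APOBEC3G, looked at after its value was seen, was higher in SW480 at 42.6 and 43.3 CPM in SW480 against 0.824 and 1.36 CPM in DLD-1.

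The element shown above in IFI6, ISG15 and IFNL1 was frequent in this list. Of the 38 members with a promoter in the table, 24 (63.2%) held GAAANNGAAA on either strand, against 308 of 10889 tested promoters (2.83%). Among genes called higher in DLD-1 it was present in 83 of 1175 promoters (7.06%), and among those called higher in SW480 in 33 of 1787 (1.85%). The motif was also present in BST2, GBP1 and GBP3, which were not higher in DLD-1 by the 2-fold rule, so the letters alone do not sort the list. The same window had a lower median ratio of observed to expected CpG in the interferon list, 0.37, than in all tested promoters, 0.83. These shares were not tested. All 4 libraries carried a lentiviral hairpin and no uninfected library was analysed here, so the part of infection in the interferon levels was not tested.

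Antigen presentation genes were also mostly on the DLD-1 side. Of 26 tested, 15 were called higher in DLD-1 (57.7%, against 11.5% of all genes tested) and 1 in SW480 (3.8%, against 17.4%), with a median log2 fold change of -1.20. TAP1, which carries peptides into the endoplasmic reticulum, had 346 and 337 CPM in DLD-1 against 63.5 and 58.1 CPM in SW480 (log2 fold change -2.49, SE 0.062, edgeR adjusted p = 3.2e-10). The immunoproteasome subunit PSMB9 had 96.7 and 88.7 CPM in DLD-1 against 16.1 and 16.2 CPM in SW480 (log2 fold change -2.52, SE 0.076). NLRC5, the activator of class I genes, had 123 and 129 CPM in DLD-1 against 26.4 and 24.2 CPM in SW480, and CD274 (PD-L1) had 24.1 and 23.6 CPM in DLD-1 against 2.35 and 2.11 CPM in SW480 (log2 fold change -3.41, SE 0.13). HLA-B, a class I heavy chain, had 388 and 373 CPM in DLD-1 against 434 and 416 CPM in SW480, and B2M, the light chain, had 399.8 and 407 CPM in DLD-1 against 499 and 462 CPM in SW480, both within 2-fold. The gene called in SW480 was HLA-DQB1 at 9.10 and 13 CPM in SW480 against 0 and 0.119 CPM in DLD-1, and reads of HLA genes depend on how far the alleles of a line match the reference. The element GAAANNGAAA was found in 10 of 21 promoters of this list (47.6%).

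Chemokine and NF-kB genes divided by member, with 12 of 38 called higher in DLD-1 (31.6%, against 11.5% of all genes tested) and 8 in SW480 (21.1%, near the 17.4% of all genes tested). CXCL5, a neutrophil chemokine, had 4050 and 4093 CPM in DLD-1 against 239.5 and 254 CPM in SW480 (log2 fold change -4.04, SE 0.077, edgeR adjusted p = 7e-11). CXCL1 and CXCL3, its neighbours on chromosome 4, had 165 and 147 CPM in DLD-1 against 10.4 and 8.63 CPM in SW480 and 174 and 172 CPM in DLD-1 against 16.3 and 10.8 CPM in SW480, while CXCL8 of the same cluster was within 2-fold at 156 and 151 CPM in DLD-1 against 177 and 161 CPM in SW480. CCL20 had 50.7 and 43.9 CPM in DLD-1 against 4.70 and 4.58 CPM in SW480. On the SW480 side were TNFAIP2 with 85.7 and 81.9 CPM in SW480 against 2.47 and 2.97 CPM in DLD-1 (log2 fold change 4.94, SE 0.1), IL32 with 160.1 and 158 CPM in SW480 against 24.3 and 21.4 CPM in DLD-1 and PLAU, the urokinase activator, with 62.5 and 56.8 CPM in SW480 against 9.30 and 8.78 CPM in DLD-1.

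Genes confined to a single line were collected by a fixed rule: at most 3 counts in each library of a line and at least 10 CPM in each library of the other. It found 119 genes confined to SW480, 50 of them at 0 counts in both DLD-1 libraries, and 32 confined to DLD-1, 9 of them at 0 in both SW480 libraries. Besides KRT5, MSN and KRT23, the 12 with the highest CPM in SW480 included STC2, a secreted glycoprotein of the stress response, with 405 and 379.5 CPM and 0 in DLD-1, at least 2210-fold higher. STRA6, the membrane receptor for retinol-binding protein, had 109.6 and 100.5 CPM in SW480 against 0 and 0 CPM in DLD-1. ANO6, a scramblase of membrane lipids, had 141 and 148 CPM in SW480 against 0 and 0.178 CPM in DLD-1, a ratio of 1630-fold, with a 95% exact interval of 556 to 7890. TRPV2 had 126 and 125 CPM in SW480 against 0.0589 and 0.119 CPM in DLD-1, IGFBP7 108 and 107 CPM in SW480 against 0.177 and 0.119 CPM in DLD-1 and PDLIM4 108 and 99.5 CPM in SW480 against 0 and 0.0593 CPM in DLD-1. LIMS3 had 201 and 164 CPM in SW480 against 0 and 0 CPM in DLD-1, but it is nearly identical to LIMS1 (496 and 496 CPM in SW480 against 154 and 170.1 CPM in DLD-1) and LIMS4 (45.3 and 48 CPM in SW480 against 0.648 and 0.534 CPM in DLD-1), so its reads may belong to these. Promoters of the confined genes had a median ratio of observed to expected CpG of 0.69 on the SW480 side and 0.36 on the DLD-1 side, against 0.83 over all tested promoters.

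On the DLD-1 side the rule named AGR2, RAB25, GRHL2, GALNT3 and IFNL1, described above, and TMEM200A with 134 and 134 CPM in DLD-1 against 0 and 0.0587 CPM in SW480. PLOD2, which hydroxylates collagen lysines, had 91.8 and 90.1 CPM in DLD-1 against 0 and 0 CPM in SW480, at least 516-fold higher. CFTR, the chloride channel of crypt cells, had 63.8 and 66.9 CPM in DLD-1 against 0 and 0.176 CPM in SW480, a ratio of 742-fold, with a 95% exact interval of 254 to 3600. MACC1, a regulator linked to metastasis of colon cancer, had 50.0 and 53.6 CPM in DLD-1 against 0.117 and 0.0587 CPM in SW480. The others were POF1B, an epithelial actin-binding protein, TMEM30B, a flippase subunit, and TMPRSS13, a membrane protease, with 56 and 61 CPM in DLD-1 against 0.0587 and 0.0587 CPM in SW480, 51.3 and 51.3 CPM in DLD-1 against 0 and 0 CPM in SW480 and 40.9 and 33.6 CPM in DLD-1 against 0.176 and 0 CPM in SW480.

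Among genes measured at over 10 counts in all 4 libraries, TGM2, the tissue transglutaminase that cross-links matrix, differed most toward SW480, with 410.2 and 399 CPM in SW480 against 1.0 and 0.653 CPM in DLD-1 (log2 fold change 8.92, SE 0.11, edgeR adjusted p = 8.9e-12). SLC2A3, the neuronal-type glucose transporter, had 491 and 501 CPM in SW480 against 2.24 and 2.61 CPM in DLD-1 (log2 fold change 7.67, SE 0.089). ANKRD1, a target of YAP signalling, had 247 and 216 CPM in SW480 against 1.94 and 2.37 CPM in DLD-1 (log2 fold change 6.74, SE 0.12). S100A4, a calcium-binding protein of motile cells, had 256 and 224 CPM in SW480 against 3.06 and 3.21 CPM in DLD-1, and COL18A1, a basement membrane collagen, had 92.7 and 97.2 CPM in SW480 against 0.942 and 1.60 CPM in DLD-1. The other members of the 12 were IQGAP2, NIBAN1, CYBRD1, SYNE3 and AFAP1L2, with log2 fold changes of 7.40, 6.46, 6.35, 5.88 and 5.74, besides AXL and SPARC. Toward DLD-1, CRYBG1 differed most with 184 and 199 CPM in DLD-1 against 1.35 and 0.939 CPM in SW480 (log2 fold change -7.38, SE 0.12, edgeR adjusted p = 3.5e-11). TRIM31, a gut ubiquitin ligase, had 95.6 and 96.8 CPM in DLD-1 against 1.47 and 0.822 CPM in SW480, and MYB, a factor of crypt progenitors, had 47.6 and 48.7 CPM in DLD-1 against 0.646 and 1.41 CPM in SW480 (log2 fold change -5.54, SE 0.17). HERC5 and CMPK2, both interferon targets, had 155 and 139 CPM in DLD-1 against 1.94 and 1.76 CPM in SW480 and 138 and 123 CPM in DLD-1 against 1.94 and 2.05 CPM in SW480, and GASK1B had 46.9 and 52.6 CPM in DLD-1 against 1.12 and 0.704 CPM in SW480. With MAL2, OAS1, IFI6, MUC5AC, EHF and MX2, these 12 held 5 interferon targets.

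Wnt genes were called about equally in both directions. Of 51 tested, 14 were called higher in SW480 (27.5%, against 17.4% of all genes tested) and 13 in DLD-1 (25.5%, against 11.5%). The median log2 fold change was -0.02. Several secreted and cytoplasmic antagonists were on the SW480 side. DKK4 had 32.4 and 35.3 CPM in SW480 against 0 and 0 CPM in DLD-1, at least 191-fold higher, NKD1 had 129.6 and 142 CPM in SW480 against 18.4 and 20.6 CPM in DLD-1 (log2 fold change 2.80, SE 0.083, edgeR adjusted p = 1e-09), NOTUM had 14.3 and 14.1 CPM in SW480 against 0.942 and 0.653 CPM in DLD-1, and APCDD1 had 149 and 165 CPM in SW480 against 4.89 and 5.34 CPM in DLD-1 (log2 fold change 4.94, SE 0.097). Several crypt stem cell genes were on the DLD-1 side. LGR5, the receptor that marks crypt base stem cells, had 44.7 and 43.8 CPM in DLD-1 against 1.35 and 1.64 CPM in SW480 (log2 fold change -4.88, SE 0.12, edgeR adjusted p = 3.7e-10), ASCL2 had 53 and 52.8 CPM in DLD-1 against 4.82 and 5.16 CPM in SW480 (log2 fold change -3.40, SE 0.09), and SOX9 had 231 and 236 CPM in DLD-1 against 62.8 and 63 CPM in SW480. AXIN2 and MYC, read widely as outputs of the pathway, stayed within 2-fold at 203 and 213 CPM in DLD-1 against 159 and 174 CPM in SW480 and 211 and 211 CPM in DLD-1 against 308 and 303 CPM in SW480. CTNNB1, beta-catenin itself, had 506 and 495 CPM in SW480 against 325 and 330.4 CPM in DLD-1.

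The HOX clusters divided by chromosome. Of 32 tested HOX genes, 13 were called in SW480 (40.6%) and 10 in DLD-1 (31.2%), against 17.4% and 11.5% of all genes tested. All 8 tested HOXC genes and all 4 tested HOXD genes were called higher in SW480, while 7 of 11 HOXA genes and 3 of 9 HOXB genes were called higher in DLD-1 and HOXB2 was called in SW480. HOXC10 had 14.6 and 13 CPM in SW480 against 0.942 and 0.593 CPM in DLD-1 (log2 fold change 4.15, SE 0.21, edgeR adjusted p = 5.2e-08), HOXC8 had 4.99 and 5.69 CPM in SW480 against 0.353 and 0.178 CPM in DLD-1, and HOXD8 had 10.9 and 11.9 CPM in SW480 against 0.648 and 0.593 CPM in DLD-1. These are posterior or trunk identity genes at a low level. HOXA13, the hindgut member, had 119.9 and 132 CPM in DLD-1 against 3.0 and 2.82 CPM in SW480 (log2 fold change -5.44, SE 0.1, edgeR adjusted p = 7.5e-11), and HOXA10 had 99.8 and 102 CPM in DLD-1 against 20.8 and 22.1 CPM in SW480. HOXB9 was just under the 2-fold limit with 315 and 279.5 CPM in DLD-1 against 147 and 155 CPM in SW480, and past it without SW480 replicate 2 (-1.02) or DLD-1 replicate 2 (-1.06). The median log2 fold changes were -1.71 for HOXA, -0.75 for HOXB, 4.22 for HOXC and 2.52 for HOXD.

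Receptor tyrosine kinases and their ligands were also split, 19 of 55 called in SW480 (34.5%) and 16 in DLD-1 (29.1%), against 17.4% and 11.5% of all genes tested. KIT, the stem cell factor receptor, had 84.7 and 86.6 CPM in DLD-1 against 0.176 and 0.235 CPM in SW480 (log2 fold change -8.65, edgeR adjusted p = 3.5e-11), although its ligand KITLG was within 2-fold at 65.9 and 80.5 CPM in DLD-1 against 77.8 and 88.6 CPM in SW480. ERBB3 and MST1R, receptors of epithelia, had 128 and 132 CPM in DLD-1 against 34.5 and 36.9 CPM in SW480 and 77 and 82.1 CPM in DLD-1 against 18.6 and 19.5 CPM in SW480. FGFR1 had 87.4 and 88.7 CPM in SW480 against 17.4 and 16.4 CPM in DLD-1 (log2 fold change 2.38, SE 0.07), EGFR had 242 and 269 CPM in SW480 against 119.6 and 135 CPM in DLD-1, at the 2-fold limit and below it without SW480 replicate 2 or DLD-1 replicate 1 (0.93 on the log2 scale in each) and on log2(FPKM + 0.1) (0.98), and MET was within 2-fold at 158 and 159.8 CPM in SW480 against 188 and 209 CPM in DLD-1. Among feedback genes of the RAS-MAPK pathway, 9 of 32 were called in SW480 (28.1%) and 4 in DLD-1 (12.5%), against 17.4% and 11.5% of all genes tested. FOSL1, SPRY4, DUSP4, ETV4 and ETV5 were higher in SW480, by 2.51, 2.10, 2.52, 1.62 and 1.58 on the log2 scale. The other way were EGR1 and JUNB, at -1.68 and -1.89, and DUSP6, read widely as an output of ERK, had 167 and 158 CPM in SW480 against 214 and 202 CPM in DLD-1, within 2-fold.

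In the TGF-beta and BMP list, 13 of 43 were called in SW480 (30.2%) and 12 in DLD-1 (27.9%), against 17.4% and 11.5% of all genes tested. BMP7 had 57.2 and 54.9 CPM in SW480 against 0.118 and 0.297 CPM in DLD-1 (log2 fold change 8.03, edgeR adjusted p = 1.6e-10), whereas BMP4 and BMP2 had 697 and 701 CPM in DLD-1 against 133 and 133 CPM in SW480 and 17.4 and 18.2 CPM in DLD-1 against 1.06 and 0.939 CPM in SW480. ID1 and ID3, direct targets of BMP signalling, were higher in DLD-1, at -1.71 and -2.93 on the log2 scale, and ID2 was higher in SW480 at 1.25. SMAD4, the common mediator, had 63.8 and 60.6 CPM in DLD-1 against 28 and 25.8 CPM in SW480 (log2 fold change -1.21, SE 0.071, and -0.99 on log2(FPKM + 1), just under 2-fold). Collagens, laminins and integrins were called in SW480 for 19 of 48 (39.6%) and in DLD-1 for 12 (25%), against the same shares of all genes. COL6A1, a collagen VI chain, had 78.4 and 84 CPM in SW480 against 0.177 and 0.297 CPM in DLD-1. The integrin chains ITGB4 and ITGB6 were higher in DLD-1, with 166 and 172 CPM in DLD-1 against 55.9 and 58.1 CPM in SW480 for ITGB4 and 9.65 and 7.71 CPM in DLD-1 against 0.235 and 0.235 CPM in SW480 for ITGB6.

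Metabolic genes differed at single steps. Targets of NRF2, the factor of the oxidative stress response, were among those higher in SW480, and 18 of 51 genes of the NRF2 and xenobiotic list (35.3%, against 17.4% of all genes tested) were called there and 8 in DLD-1 (15.7%, against 11.5%). By adjusted p alone, 24 of the list were higher in SW480 and 16 in DLD-1, and its median log2 fold change was only 0.14. TXNRD1 had 2796 and 2841 CPM in SW480 against 1107 and 1065 CPM in DLD-1 (log2 fold change 1.38, SE 0.067, edgeR adjusted p = 3.5e-08), SRXN1 had 413 and 420.3 CPM in SW480 against 102 and 103 CPM in DLD-1 and HMOX1 had 106 and 99.5 CPM in SW480 against 32 and 32.8 CPM in DLD-1. AKR1B10 had 350.2 and 362 CPM in SW480 against 0.530 and 0.653 CPM in DLD-1 (log2 fold change 9.22, SE 0.11). NQO1 was just under the limit at 0.99 on the log2 scale, and over it without DLD-1 replicate 1 (1.06), and NFE2L2, the gene of NRF2, was at 0.25. AKR1C1, with 61.6 and 62.1 CPM in SW480 against 0.0589 and 0.178 CPM in DLD-1, and UGT1A1, with 213 and 224 CPM in SW480 against 6.95 and 7.36 CPM in DLD-1, share long stretches of sequence with relatives, so that reads may be divided between genes. On the DLD-1 side were CYP2J2 with 45.3 and 46.9 CPM in DLD-1 against 0.528 and 0.587 CPM in SW480 and CYP1B1 with 52.7 and 53 CPM in DLD-1 against 2.52 and 1.53 CPM in SW480. Among fatty acid enzymes, ELOVL5, an elongase, had 72.3 and 70.7 CPM in SW480 against 0 and 0 CPM in DLD-1, at least 403-fold higher, and FADS1 and FADS2, the desaturases beside it in the pathway, had 128 and 141 CPM in SW480 against 6.0 and 5.28 CPM in DLD-1 and 38.5 and 35.3 CPM in SW480 against 12.1 and 12.1 CPM in DLD-1. The cholesterol enzyme SQLE stayed within 2-fold, at -0.17 on the log2 scale. Of 42 cholesterol and fatty acid genes, 6 were called in SW480 (14.3%) and 5 in DLD-1 (11.9%), against 17.4% and 11.5% of all genes tested. By adjusted p alone, 9 were higher in SW480 and 23 in DLD-1, and the median log2 fold change was -0.25. In glycolysis, FBP1, the gluconeogenic phosphatase, had 20.7 and 18.5 CPM in DLD-1 against 0.0587 and 0 CPM in SW480, and 8 of 34 genes of that list were called in SW480 (23.5%, against 17.4% of all genes tested) and 2 in DLD-1 (5.9%, against 11.5%).

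Growth genes stayed mostly within 2-fold. Of 41 proliferation genes, 6 were called, in DLD-1 (14.6%, near the 11.5% of all genes tested), namely CCNE1, CCNE2, E2F2, MCM2, MCM4 and MCM5, with log2 fold changes from -1.67 to -1.06, and CCNE2 was under 2-fold without DLD-1 replicate 2 (-0.96). By adjusted p alone, 25 were higher in DLD-1 and 9 in SW480. MKI67 had 581 and 621 CPM in SW480 against 634 and 749.7 CPM in DLD-1. Of 35 inhibitors and p53 targets, 7 were called in SW480 (20%, against 17.4% of all genes tested) and 2 in DLD-1 (5.7%, against 11.5%). With adjusted p alone, 22 of the 35 were higher in SW480 and 6 in DLD-1, against 39.3% and 37.2% of all genes tested. The median log2 fold change of the list was 0.54. The paper describes both lines as p53 mutant. CDKN2A, which encodes p16 and ARF, had 39.2 and 35 CPM in SW480 against 0.177 and 0 CPM in DLD-1, a ratio of 418-fold, with a 95% exact interval of 143 to 2030. CDKN1A (p21) had 179 and 176 CPM in SW480 against 24.1 and 20.2 CPM in DLD-1 (log2 fold change 3.0, SE 0.081, edgeR adjusted p = 5.3e-10) and PHLDA3 had 99 and 96.6 CPM in SW480 against 0.412 and 0.534 CPM in DLD-1, whereas MDM2 and BAX were within 2-fold at -0.10 and 0.12. Of 16 tested mismatch repair genes, 4 were called higher in DLD-1 and 1 in SW480. By adjusted p alone, 11 were higher in DLD-1 and 3 in SW480, and the median log2 fold change was -0.47. The gene called in SW480 was MSH6, with 70.8 and 71.3 CPM in SW480 against 24.1 and 24.6 CPM in DLD-1 (log2 fold change 1.54, SE 0.065, edgeR adjusted p = 1.3e-08). DLD-1 is known as a mismatch repair deficient line, but the list as a whole was not lower there.

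Position along the genome was described last. The median log2 fold change of the genes on a chromosome was highest on X (0.47), 20 (0.44), 7 (0.42) and 13 (0.39), and lowest on 18 (-0.28) and 4 (-0.26). On chromosome 20, 72.7% of 363 genes were higher in SW480 by sign, against 31.5% of 470 on chromosome 4 and 50.5% of all genes tested. When the genes were divided into 654 runs of about 20 neighbours, 64 runs had a median above 0.5 and 28 a median below -0.5. The lowest run lay on chromosome 4 (87422573 to 98658611, from NUDT9 to TSPAN5, GRCh38.p14), with a median of -1.33 and 12 of 20 genes called in DLD-1. It holds HERC5 and HERC6. The highest run lay on chromosome 17 (40922700 to 41966503, from KRT23 to ODAD4), with a median of 1.19 and 11 of 20 called in SW480. A run on 18 with SMAD4 (49481178 to 57036606) had a median of -0.74, with 1 of its 21 genes higher in SW480 by sign. Neighbouring genes are not replicates, DNA copy number was not measured here, and its part in these medians was not tested.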

How the data were processed

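RNA-seq of 2 SW480 and 2 DLD-1 shControl libraries was used, grouped by the cell line and virus in the labels. The authors deposited estimated counts per RefSeq transcript from poly(A)-selected, single-end reads sequenced by BGI, and FPKM per library, which served for alternatives only. The submitters' processing notes list HISAT2 2.0.4, Bowtie2 2.2.5 and RSEM 1.2.12, without roles. Whether the kit kept strand is not given in the sources used here, so overlapping and antisense genes cannot be told apart.

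Estimated counts were summed per gene, rounded, filtered with filterByExpr (minimum count 10, minimum total 15), scaled by TMM and tested in edgeR 4.0.16 (R 4.3.3), with the line as the only term. Each standard error (SE) was taken from the log2 fold change and the root of its F value. For large folds with few counts in a line, this value can fall below the counting error. The SE of such genes then overstates their precision. CPM, counts scaled to a fixed library total, use TMM library sizes. Of the 17309 gene identifiers, 99.3% matched a RefSeq symbol (GRCh38.p14). For genes at 0 counts in a line, "at least" folds are against 3 counts per library. With 1 to 3 counts in a library, ratios of summed counts have an exact 95% interval.

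The genes named are the 12 confined to each line with the highest CPM, the 12 with the largest fold in each direction among those over 10 counts in all libraries, members of 27 gene lists, NAT10 and KIF23, and others marked as chosen after their values were seen. The comparison and lists were chosen with earlier results of these data known. The GAAANNGAAA motif was added after results were seen, and the E-box and CpG were planned. Some genes that the rule names and a planned motif are not reported here. Alternatives were DESeq2 1.42.0, limma 3.58.1 on FPKM, other normalizations and filters, all 8 libraries in the fit, a replicate block and leaving out each library. Scripts were tested on simulated data.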

Additional observations from a re-analysis of the deposited data

How the results depend on the processing

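The count of genes higher in SW480 by 2-fold, 2332, was 1333 with at least 10 counts required in every library (11822 genes left) and 1487 on log2(FPKM + 1), and that of genes higher in DLD-1, 1542, was 937 on log2(FPKM + 1). The first alternative removes genes that are near 0 in a line, and a pseudocount of 1 shrinks the folds of low genes. The other settings kept both counts within 1.5 times, with 2255 and 1459 by DESeq2 and 1912 and 1133 when the test itself was set against a fold of 2. Without each library in turn, where a lone library is assumed to vary like the pair of the other line, 2290 to 2323 genes were higher in SW480 and 1516 to 1529 in DLD-1, and by adjusted p alone 4720 to 4937 and 4388 to 4599. A replicate block gave 2331 and 1539 genes, and 5501 and 5285 by adjusted p alone, against 5276 and 4987 without it. Libraries of the same number showed little sign of pairing. The deviation of replicate 1 from the mean of its line had a correlation of 0.069 between the lines, taken across genes. Of 193 named genes called by 2-fold, LGALS4 also lost its call in DESeq2 (adjusted p = 0.072) and with no filter (edgeR adjusted p = 0.071), on log2(FPKM + 1) it (0.71), VIL1 (0.84), MUC12 (0.08, and 0.65 on log2(FPKM + 0.1)), GATA4 (0.70), CGAS (0.75), BCL2 (0.98), SMAD4 (-0.99), CCNE2 (-0.95) and EGFR (0.93, and 0.98 on log2(FPKM + 0.1)) were under 2-fold, and NQO1 passed 2-fold with upper-quartile factors (1.02 on the log2 scale). The median of the mesenchymal list fell from 2.69 to 1.37 with at least 10 counts in every library and to 1.42 on log2(FPKM + 1). The direction of a list's median turned with at least 10 counts in every library for keratins (-0.24), HOX genes (-0.56), receptor tyrosine kinases (-0.05) and glycosylation genes (0.15). With 2 libraries a line, small differences between the lines have little replicate support, and genes under 3 counts per library cannot be told from absent ones.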

Other observations

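Of 12 tested cancer-testis and oncofetal genes, 6 were called higher in SW480 (50.0%, against 17.4% of all genes tested) and 1 in DLD-1. IGF2BP1, a fetal RNA-binding protein, had 70.2 and 73.1 CPM in SW480 against 0.118 and 0.356 CPM in DLD-1 (log2 fold change 8.20, edgeR adjusted p = 1.1e-10), and its relative IGF2BP3 had 71.5 and 69.5 CPM in SW480 against 9.83 and 12.9 CPM in DLD-1. L1CAM, a neural adhesion molecule, had 51.7 and 52.6 CPM in SW480 against 0 and 0 CPM in DLD-1, and NES, the filament nestin of neural progenitors, had 34.8 and 37.1 CPM in SW480 against 0.118 and 0.0593 CPM in DLD-1. CD24, a surface glycoprotein of epithelial and progenitor cells, had 131 and 130.3 CPM in DLD-1 against 0.528 and 0 CPM in SW480. BCL2 family and death genes were called in DLD-1 for 9 of 32 (28.1%, against 11.5% of all genes tested) and in SW480 for 5 (15.6%, against 17.4%). BCL2 itself had 5.23 and 5.81 CPM in SW480 against 0.471 and 0.593 CPM in DLD-1 (log2 fold change 3.36, SE 0.26, and 0.98 on log2(FPKM + 1)), BCL2L1 had 454 and 443 CPM in SW480 against 205 and 183 CPM in DLD-1, and the gasdermin GSDMB had 16.7 and 16.1 CPM in DLD-1 against 1.70 and 1.47 CPM in SW480 (log2 fold change -3.37, SE 0.16). L1CAM is a member of the mesenchymal list, and NES and CD24 were chosen after their values were seen.

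Some genes of ligand-bound transcription factors, iron storage and autophagy also differed. NR3C1, the glucocorticoid receptor, had 12.8 and 14.6 CPM in SW480 against 0 and 0.178 CPM in DLD-1, and AHR, the dioxin receptor, had 134 and 146 CPM in DLD-1 against 34.7 and 41 CPM in SW480 (log2 fold change -1.89, SE 0.085). FTL, the light chain of ferritin, which stores iron, had 8030 and 7624 CPM in SW480 against 1371 and 1266 CPM in DLD-1 (log2 fold change 2.57, SE 0.085, edgeR adjusted p = 2.1e-09), and its partner chain FTH1 had 5562 and 5583 CPM in SW480 against 4768 and 4360 CPM in DLD-1. SQSTM1, a cargo receptor of autophagy, had 3801 and 3701 CPM in SW480 against 904 and 912 CPM in DLD-1. NR3C1, FTL, FTH1 and SQSTM1 were chosen after their values were seen.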
